A study of Mus musculus with 71 samples.

Results

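The 7 genes described here encode the accessory subunits and the inhibitor of Polycomb repressive complex 2 (PRC2), namely AU022751, Mtf2, Phf1, Phf19, Lcor, Jarid2 and Aebp2, and were picked by symbol from the 24222 genes of the RNA count tables. Their mRNA was measured by polyA RNA sequencing in mouse embryonic stem (ES) cells of the C57BL/6 strain, grown on gelatin in 2i, a medium with a pair of kinase inhibitors that keeps ES cells naive. The 3 groups of 3 libraries were cells with both Ezh1 and Ezh2 knocked out (dKO, double knockout), cells labelled EZH2 rescue, in which wild-type EZH2 was put back (rescue), and wild type (WT). How the rescue construct was expressed, and whether dKO or rescue is 1 clone, is not given in the sources used here. The Suz12 peaks of wild-type 129B6F1 ES cells, another strain, 7480 in number, were also used, and 61 further chromatin samples were not analysed here.

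PRC2 methylates lysine 27 of histone H3 and holds developmental genes silent. Its core pairs EZH1 or EZH2, the methyltransferases, with the scaffold SUZ12, with EED, which binds the methylated product, and with a histone-binding RBBP protein. SUZ12 takes on 1 of 2 alternative sets of partners. In the first, a Polycomb-like protein (PHF1, MTF2 or PHF19) binds CpG-rich DNA and can be joined by PALI1, a product of the Lcor gene, or by EPOP. In the second, JARID2 and the zinc-finger protein AEBP2 bind together. AU022751 is the mouse counterpart of human EZHIP, a germline protein that inhibits PRC2 by mimicking a mutated histone tail.

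Libraries held 12457622 to 36009529 counts. Levels are given as CPM, edgeR's count normalised to library size, here scaled by TMM factors. Changes are log2 fold changes of 1 edgeR quasi-likelihood fit over 14145 genes and all 9 libraries, and calls were made where the Benjamini-Hochberg adjusted p was under 0.05. Ezh1 stood at 2.34, 1.83 and 1.80 CPM in dKO, at 2.89, 2.33 and 3.42 CPM in rescue and at 53.4, 48.4 and 47.9 CPM in WT. Ezh2 stood at 192, 191 and 214 CPM in dKO, at 555, 576 and 549 CPM in rescue and at 308, 314 and 310 CPM in WT, so transcript from the Ezh2 gene was still counted in the knockout. The 8 ES cell markers summed to 5721 to 5903 CPM in dKO, 7769 to 7937 in rescue and 6288 to 6431 in WT. They did not all move alike. In dKO against WT 2 were higher and 5 lower, and in rescue against WT 6 were higher and 1 lower. In rescue against dKO 6 were higher and 0 lower. The 6 primitive endoderm markers summed to 163.5 to 177.2 CPM in dKO, 30.4 to 35.8 in rescue and 13.2 to 16.04 in WT, with all 5 tested markers higher in dKO than in WT. The 8 fibroblast markers summed to 58.7 to 64.8 CPM in dKO, 14.7 to 15.6 in rescue and 6.70 to 8.39 in WT. All 5 tested fibroblast markers were higher in dKO than in WT. Of all tested genes, 33.7% were called higher and 31.0% lower in that comparison. Genes were tested only if they passed a filter on low counts. A marker very low in WT can pass it through its level in another group. The counts of tested endoderm and fibroblast markers called higher may thus be partly set by that filter. Lum was at 0 in all groups, and Col3a1 and Dcn averaged at most 0.0251 CPM in any group. Much of the fibroblast sum in dKO was Thy1, at 29.9 CPM on average. The primitive endoderm sum in dKO was mostly Col4a1, at 120 CPM on average. These lists moved with the groups compared below, and their part in the results was not tested. In bulk RNA, fewer cells of a type and less RNA per cell cannot be told apart. The library dKO replicate 3 stood apart from the other dKO libraries, at 12.3 on the second principal component against -7.46 and -6.42. Fold changes of the 7 genes whose call or sign changes without it are given both ways. For other genes, the marker lists and the ratios to Suz12, no results without it are given.

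In dKO against WT, AU022751, Phf19 and Jarid2 rose and Mtf2 fell, while Phf1, Lcor and Aebp2 were not called. That is 4 of 7 genes, or 57.1%, where 64.7% of all tested genes were called, 33.7% higher and 31.0% lower. A share near that background is not a result about these genes. Their median log2 fold change was 0.32, against 0.00 over all tested genes (-0.00261). The dKO and WT libraries did not overlap for 4 of the 7, against 68.0% of all tested genes.

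In rescue against dKO, Mtf2 rose, AU022751 and Phf19 fell, and Phf1, Lcor, Jarid2 and Aebp2 were not called. These 3 of 7 genes, or 42.9%, stand beside 70.3% of all tested genes called, 32.1% higher and 38.2% lower. The median log2 fold change was 0.08 for the 7 and -0.04 over all tested genes. The libraries did not overlap for 3 of the 7, where 71.7% of all tested genes did not.

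In rescue against WT, Phf1, Lcor and Jarid2 rose, Phf19 fell, and AU022751, Mtf2 and Aebp2 were not called. The 4 calls, 57.1% of the 7, compare with 54.1% of all tested genes called, 26.8% higher and 27.3% lower. The median log2 fold change was -0.01 for the 7 and 0.00 over all tested genes (0.00158). The libraries did not overlap for 4 of the 7, against 65.3% of all tested genes. The 3 comparisons share libraries with each other and are not independent. All 7 genes passed the filter on low counts, none was at 0 in any library, and all have counts in every group.

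**Figure D1:**
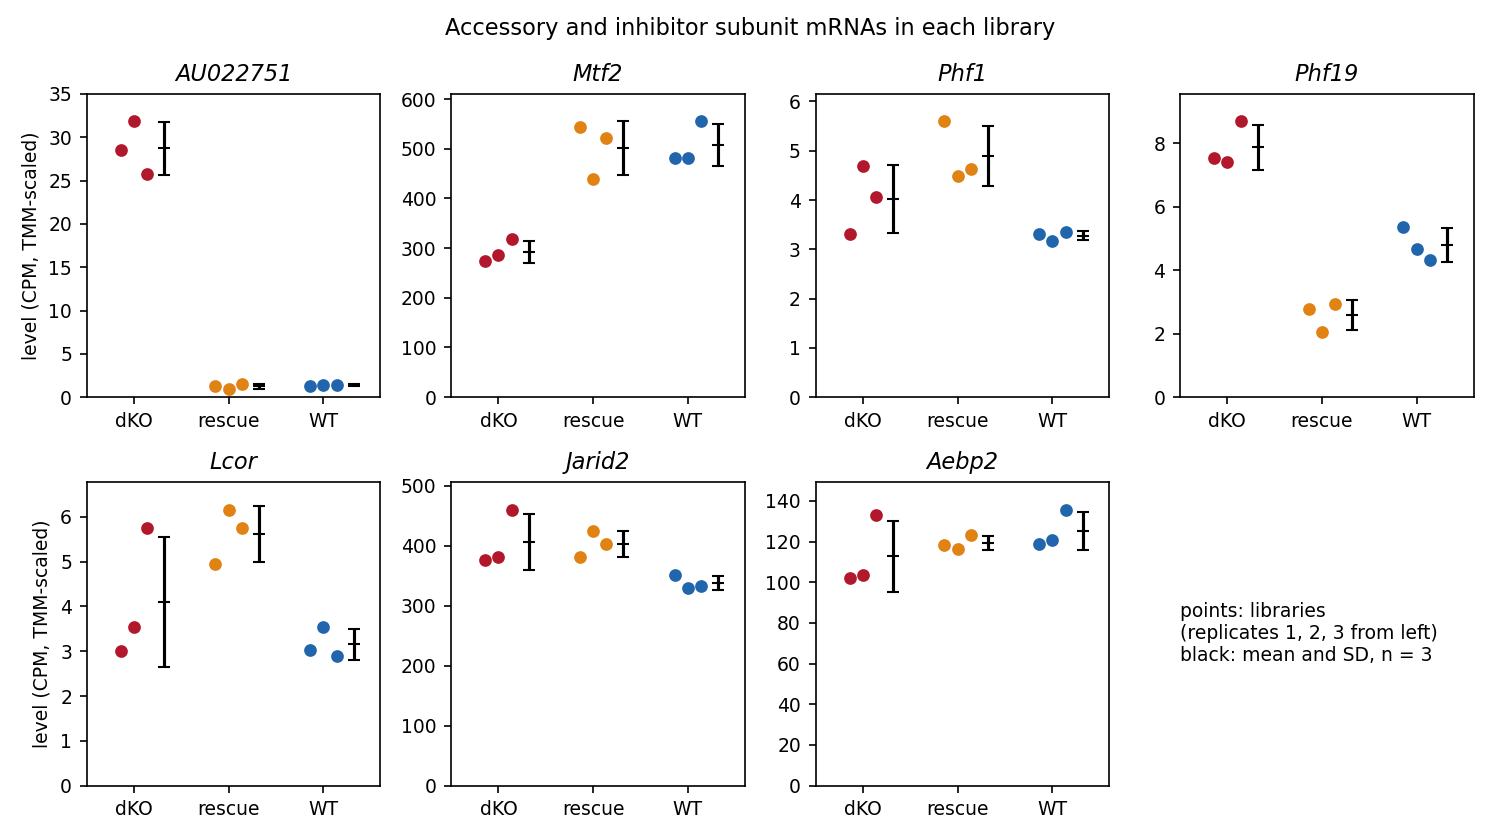
Level of each accessory or inhibitor subunit mRNA in every library, in TMM-scaled CPM on a linear axis from 0, for dKO, rescue and WT, with 1 panel per gene. Points are libraries, and the black mark and bar are the mean and SD (n = 3). AU022751 stands at 25.7 to 31.9 CPM in dKO and below 1.6 CPM in all other libraries, and Mtf2 is lowest in the 3 dKO libraries.

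**Figure D2:**
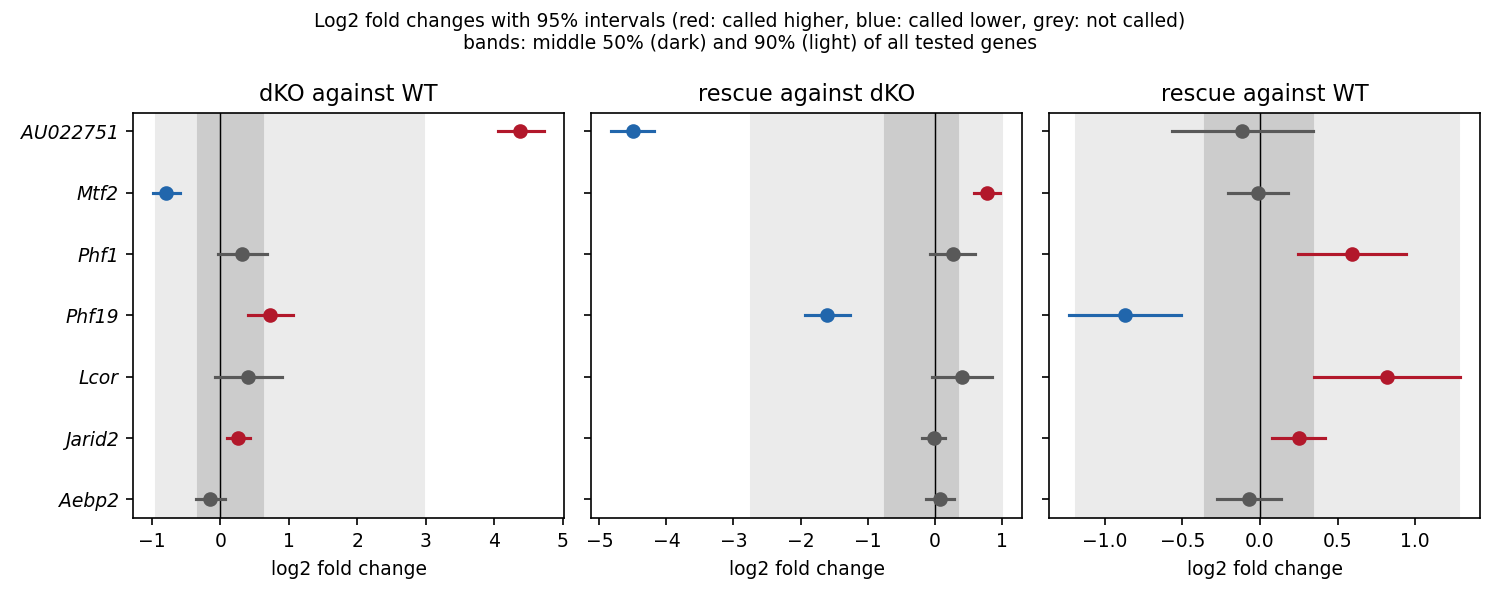
Log2 fold change of each gene in the 3 comparisons, with its 95% interval. The grey bands hold the middle 50% and 90% of all tested genes. AU022751 lies outside the wider band in dKO against WT (4.38) and in rescue against dKO (-4.50), and inside the narrower one in rescue against WT (-0.11).

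The promoters of 3 of these genes are shown because AU022751, Phf19 and Mtf2 were each called in dKO against WT and in rescue against dKO under every alternative run, and differ in CpG content and in Suz12 peaks. Each is the 250 bases before an annotated start from RefSeq, GRCm38.p6, 5′ to 3′ on the strand of the gene, with CG in capitals. CG was searched as the letters CG, which read alike on both strands, and over the 32851 RefSeq promoters of this length the median was 6.
AU022751, chrX:6083421-6083670, minus strand: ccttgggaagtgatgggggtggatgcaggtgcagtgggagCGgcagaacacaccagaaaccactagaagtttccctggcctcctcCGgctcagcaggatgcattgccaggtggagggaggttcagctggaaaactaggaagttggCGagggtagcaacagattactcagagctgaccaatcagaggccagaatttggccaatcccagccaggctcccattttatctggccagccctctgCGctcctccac
Phf19, chr2:34913977-34914226, minus strand: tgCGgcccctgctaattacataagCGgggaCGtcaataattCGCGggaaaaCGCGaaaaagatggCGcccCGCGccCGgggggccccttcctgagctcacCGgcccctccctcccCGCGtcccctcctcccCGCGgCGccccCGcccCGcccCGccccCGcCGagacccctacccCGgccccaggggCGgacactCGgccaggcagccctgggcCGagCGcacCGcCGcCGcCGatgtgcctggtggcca
Mtf2, chr5:108065424-108065673, plus strand: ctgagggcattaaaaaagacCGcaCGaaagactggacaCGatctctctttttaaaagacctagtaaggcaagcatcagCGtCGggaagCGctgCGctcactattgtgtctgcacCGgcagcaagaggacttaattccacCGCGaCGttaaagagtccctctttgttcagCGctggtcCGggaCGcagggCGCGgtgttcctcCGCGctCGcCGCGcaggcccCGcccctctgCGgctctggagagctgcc
The AU022751 window holds 4 CG, and 62.2% of RefSeq promoters hold at least as many. The Phf19 window holds 31, reached by 5.19% of promoters, and the Mtf2 window holds 23, reached by 13.3%. A second annotated Mtf2 start, not shown, has 2 CG, reached by 81.2%. The AU022751 window also holds the letters CCAAT, searched on both strands, at 2 places, where 33.9% of promoters hold at least 1. All 7 genes matched a promoter in that table. The first annotated starts of Phf1 and Jarid2 had 23 CG each, that of Lcor 45 and that of Aebp2 1, while a second Aebp2 start had 14.

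Suz12, the scaffold subunit itself, was bound at an annotated start of only 1 of the 7 genes in the deposited list, Phf19. That peak ran from 34912484 to 34914547 on chromosome 2 and covered the whole Phf19 window shown above. Lcor held a peak of 668 bases inside the gene, 103902 bases from its start, and Aebp2 one of 506 bases 733 bases from its nearest start. The other 4 genes had no peak within 1 kb, and their nearest peaks lay 8.58 kb from Phf1, 78.2 kb from Mtf2, 79.8 kb from Jarid2 and 1240 kb from AU022751. With 3 of 7, the genes compare with 31.5% of tested genes that had a peak within 1 kb of the gene or inside it. When only peaks wider than the median of 1032 bases counted, 1 of the 7 genes, Phf19, kept its peak, against 16.8% of tested genes. The peaks come from another strain and carry no score, so they describe where Suz12 was called and not how much was there.

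AU022751 (Ezhip, chromosome X, 6081218 to 6083420), the PRC2 inhibitor, was at 28.6, 31.9 and 25.7 CPM in dKO, at 1.29, 0.981 and 1.51 CPM in rescue and at 1.24, 1.40 and 1.44 CPM in WT. All dKO libraries lay far above all others, and rescue and WT overlapped. These levels rest on 379, 747 and 644 counts in dKO, 45, 21 and 35 counts in rescue and 18, 30 and 28 counts in WT. Against WT, it rose 20.9-fold in dKO, a log2 fold change of 4.38 ± 0.155 (SE) with an edgeR Benjamini-Hochberg adjusted p = 8.3e-10. That placed it at rank 190 of 14145 by log2 fold change, where 19.1% of genes were called higher by over 2-fold. In rescue against dKO it fell by 4.50 ± 0.149 on the log2 scale, to 1.26 ± 0.267 CPM in rescue, against 28.7 ± 3.08 in dKO (SD, n = 3), where 19.9% of genes were called lower by over 2-fold. In rescue against WT the log2 fold change was -0.11, with a 95% interval of -0.57 to 0.34, and differences within that interval are not excluded. A lncRNA gene, Gm26618, overlaps AU022751 in the annotation, and without strand in the libraries its reads cannot be told apart.

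The genes beside AU022751 moved in dKO as well, but not in the same way in rescue. The nearest tested gene on each side was Nudt11 on the centromere side and Nudt10 on the other, both coding for diphosphoinositol polyphosphate phosphohydrolases and so alike in sequence that their split is uncertain. Nudt11 averaged 16.9 CPM in dKO, 8.42 in rescue and 1.05 in WT, and Nudt10 3.31, 1.68 and 0.303 CPM in the same order. In rescue against WT, where AU022751 stood at -0.11, Nudt11 rose by 2.99 ± 0.239 and Nudt10 by 2.398 ± 0.408 on the log2 scale (SE, edgeR Benjamini-Hochberg adjusted p = 1.54e-06 and 0.000401). Both were above WT in rescue, where AU022751 was not called.

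Higher levels than WT extended along the chromosome. Of the 30 tested genes within 2 Mb on the centromere-distal side, 96.7% were above 0 in dKO against WT, with a median log2 fold change of 0.92, and 96.7% were above 0 in rescue against WT, with a median of 1.01. From 2 to 5 Mb the medians were 0.76 and 0.97 over 19 genes, with 78.9% and 63.2% above 0, and from 5 to 10 Mb they were -0.44 and -0.16 over 10 genes. The X chromosome as a whole had medians of -0.09 and -0.06. AU022751 thus lay beside genes that were above WT in both dKO and rescue, and in rescue did not itself differ from WT beyond the spread. These neighbours are genes that passed the filter on low counts, which a gene such as Nudt10 can pass through its level in 1 group. In RNA counts, a change in the DNA copies of this stretch and a change in expression per copy cannot be told apart, which bears on every fold change against WT given for it. The part of this stretch in the rise of AU022751 in dKO was not tested. The rise of AU022751 in dKO against WT was 4.38 ± 0.155 (SE). Among the 11 nearest tested genes the median was 1.17, and the highest, Nudt11, was at 3.99 ± 0.231. A difference between AU022751 and Nudt11 in this rise was not tested.

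**Figure D3:**
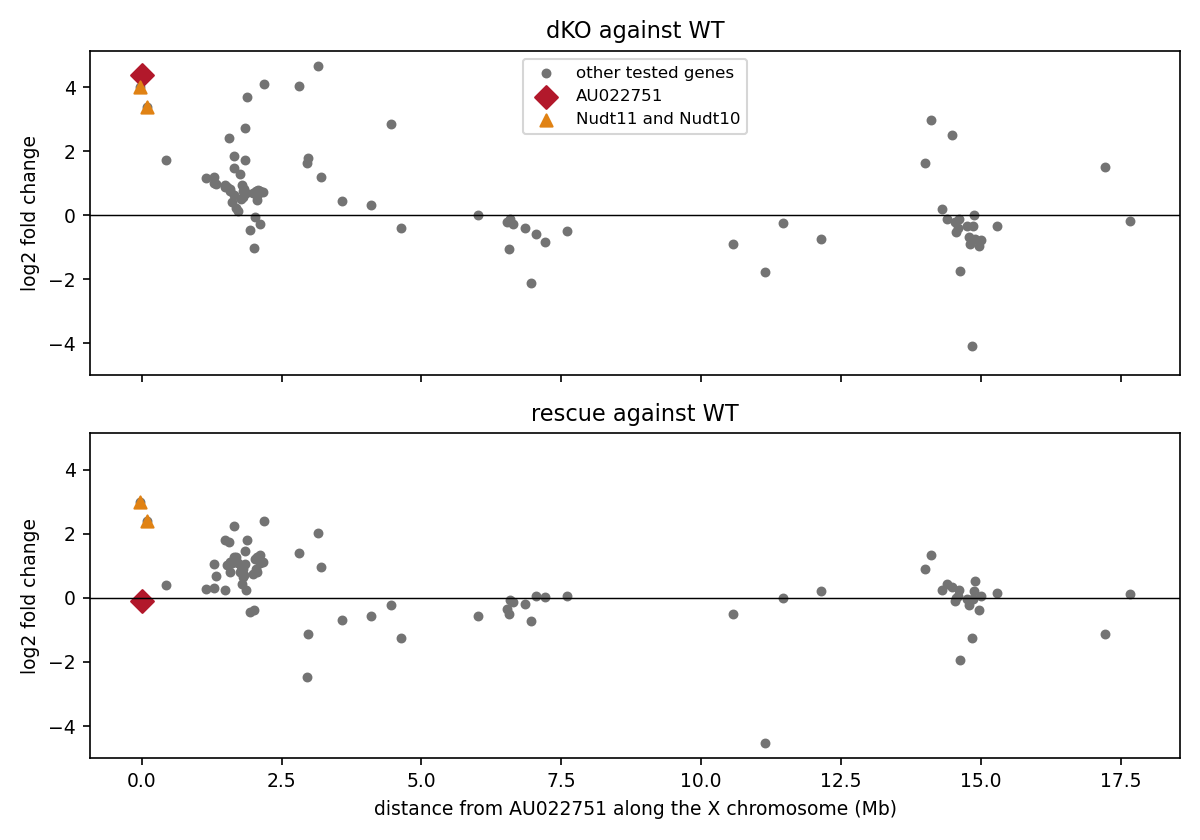
Log2 fold change of tested X-linked genes against their distance from AU022751 in Mb, for dKO against WT (top) and rescue against WT (bottom). In both panels most genes within 2 Mb lie above 0, with medians of 0.92 and 1.01, whereas AU022751 (diamond) is at 4.38 in the top panel and at -0.11 in the bottom one.

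Germ cell and oocyte markers were read beside AU022751, since EZHIP is known from germ cells. The 10 male and early germ cell markers summed to 320.6 to 398.3 CPM in dKO. Their sum was 83.6 to 94.5 in rescue and 119 to 134.6 in WT. Much of the dKO sum was Piwil2 and Dazl, at 137 and 85.4 CPM on average. Of the 10, 9 rose and 1 fell in dKO against WT, where 33.7% of all tested genes were called higher and 31.0% lower. In rescue against WT 2 rose and 5 fell, beside 26.8% and 27.3% of all tested genes, while AU022751 was not called. The 8 oocyte markers summed to 7.91 to 10.5 CPM in dKO, 12.1 to 14.5 in rescue and 12.5 to 13.2 in WT, with Oosp1 at 0 in all groups and only 1 of the 8 tested. The oocyte sum was mostly Zp3, the 1 tested marker, which averaged 8.75 CPM in dKO, 12.6 in rescue and 12.4 in WT, so it says little of the other 7. The germ cell sum was highest in dKO, as was AU022751, and its part in the result was not tested.

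Mtf2 (chromosome 5, 108065660 to 108109219), the Polycomb-like protein that recruits PRC2 to CpG islands in ES cells, was at 274, 286 and 317 CPM in dKO, at 544, 440 and 521 CPM in rescue and at 482, 482 and 556 CPM in WT. All dKO libraries lay below all others, and rescue and WT overlapped. Against WT it fell by 0.79 ± 0.0894 in dKO on the log2 scale, to 0.577-fold (edgeR Benjamini-Hochberg adjusted p = 9.52e-06). In rescue against dKO it rose by 0.78 ± 0.0893 (edgeR Benjamini-Hochberg adjusted p = 8.95e-06). In rescue against WT the log2 fold change was -0.01, with a 95% interval of -0.21 to 0.18. Of the 20 nearest tested genes 5 rose and 5 fell in dKO against WT, with a median of -0.07. Of all tested genes, 33.7% were called higher and 31.0% lower there. The gene next to Mtf2 on the right, Tmed5, was among those that fell, by 0.67 ± 0.154 on the log2 scale (edgeR Benjamini-Hochberg adjusted p = 0.0026), and it was named after its values were seen.

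Phf19 (chromosome 2, 34893752 to 34914353), a Polycomb-like protein, was the 1 gene of the 7 to differ in all 3 comparisons. It was at 7.53, 7.42 and 8.70 CPM in dKO, at 2.77, 2.05 and 2.94 CPM in rescue and at 5.37, 4.66 and 4.33 CPM in WT. No 2 of the groups overlapped, with dKO highest, WT between and rescue lowest. Phf19 rose by 0.73 ± 0.151 on the log2 scale in dKO against WT (edgeR Benjamini-Hochberg adjusted p = 0.00109). It fell by 1.60 ± 0.156 in rescue against dKO and by 0.87 ± 0.164 in rescue against WT (edgeR Benjamini-Hochberg adjusted p = 2.22e-06 and 0.000862). Rescue thus stood at 0.548-fold of WT. Phf19 was also the only gene of the 7 with a Suz12 peak at its start, and a link between that peak and its level was not tested. Of the 20 nearest tested genes 12 rose and 1 fell in dKO against WT, with a median of 0.42. Of all tested genes, 33.7% were higher and 31.0% lower there. In rescue against dKO 0 of the 20 rose and 13 fell (median -0.43), beside 32.1% and 38.2% of all. In rescue against WT 2 rose and 8 fell (median -0.13), beside 26.8% and 27.3%. Other subunits had such neighbours too. Near Jarid2, 5 of 20 rose and 11 fell in rescue against dKO (median -0.39). Near Aebp2, 11 rose and 2 fell in rescue against WT (median 0.35).

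Phf1 (chromosome 17, 26933127 to 26937908), the remaining Polycomb-like protein, was at 3.32, 4.69 and 4.07 CPM in dKO, at 5.602, 4.48 and 4.63 CPM in rescue and at 3.31, 3.17 and 3.35 CPM in WT. A microRNA gene, Mir6968, overlaps Phf1 in the annotation. Without strand in the libraries, its reads may not all be told apart from those of Phf1. The rescue libraries lay above all WT libraries, and dKO overlapped both. Phf1 rose by 0.59 ± 0.159 on the log2 scale in rescue against WT (edgeR Benjamini-Hochberg adjusted p = 0.00778). In dKO against WT it was at 0.32, with a 95% interval of -0.04 to 0.68, and in rescue against dKO at 0.27, with an interval of -0.06 to 0.61. The first of these passed with scaling to total counts alone, at 0.46 with an edgeR Benjamini-Hochberg adjusted p = 0.0307, and without dKO replicate 1, at 0.42 with 0.0463.

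Lcor (chromosome 19, 41482682 to 41596161) encodes the nuclear receptor corepressor LCOR and, by a longer product, PALI1, and gene-level counts do not separate them. A protein-coding gene, Morf4l1b, and a microRNA gene, Mir8091, overlap Lcor in the annotation. Without strand in the libraries, their reads may not all be told apart from those of Lcor. It was at 3.01, 3.54 and 5.75 CPM in dKO, at 4.95, 6.16 and 5.75 CPM in rescue and at 3.03, 3.54 and 2.89 CPM in WT. All rescue libraries lay above all WT libraries, and dKO replicate 3 lay with rescue while the other dKO libraries lay with WT. Lcor rose by 0.82 ± 0.217 in rescue against WT on the log2 scale, to 1.76-fold (edgeR Benjamini-Hochberg adjusted p = 0.00727). It was not called in dKO against WT, at 0.41 with a 95% interval of -0.09 to 0.90, nor in rescue against dKO, at 0.41 with an interval of -0.04 to 0.86. Without dKO replicate 3 the first was 0.07 (edgeR Benjamini-Hochberg adjusted p = 0.749) and the second was 0.74 and called (adjusted p = 0.000625), while without dKO replicate 1 the first was 0.56 and called (adjusted p = 0.0427).

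Jarid2 (chromosome 13, 44730774 to 44921643), which binds nucleosomes and stimulates the enzyme, was at 376, 382 and 461 CPM in dKO, at 381, 425 and 403 CPM in rescue and at 351, 330 and 334 CPM in WT. The dKO and rescue libraries overlapped, and both lay above all WT libraries. Jarid2 rose by 0.26 ± 0.0779 in dKO against WT and by 0.25 ± 0.0778 in rescue against WT on the log2 scale, 1.20-fold and 1.19-fold (edgeR Benjamini-Hochberg adjusted p = 0.0104 and 0.0167). In rescue against dKO it was at -0.01, with a 95% interval of -0.18 to 0.16. The rise in dKO came to 0.16 without dKO replicate 3 (adjusted p = 0.0135) and to 0.40 with scaling to total counts. The rise in rescue was lost without WT replicate 2 (adjusted p = 0.0621) or without rescue replicate 2 (adjusted p = 0.0612).

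Aebp2 (chromosome 6, 140622454 to 140678472), the zinc-finger partner of JARID2, was at 102, 104 and 133 CPM in dKO, at 118, 116 and 123 CPM in rescue and at 119, 121 and 136 CPM in WT. All 3 groups overlapped, and the gene was called in none of the comparisons. Its log2 fold change was -0.15 in dKO against WT, with a 95% interval of -0.36 to 0.06, 0.08 in rescue against dKO, with -0.13 to 0.29, and -0.07 in rescue against WT, with -0.28 to 0.14. Without dKO replicate 3, which at 133 CPM lay above the other dKO libraries, Aebp2 was called lower in dKO against WT, at -0.29 (edgeR Benjamini-Hochberg adjusted p = 0.000709), and higher in rescue against dKO, at 0.22 (adjusted p = 0.00452).

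The scaffold Suz12 itself differed between the groups, at 486, 510 and 649 CPM in dKO, 779, 716 and 790 CPM in rescue and 456, 442 and 478 CPM in WT. Each subunit was therefore also read as its count per Suz12 count in the same library, divided by the WT mean of that ratio, in which gene length cancels. Mtf2 stood at 0.512, 0.508 and 0.443 of the WT ratio in dKO and at 0.633, 0.557 and 0.598 in rescue, against 0.960 to 1.05 in the WT libraries. Relative to Suz12, Mtf2 mRNA was thus below WT in both, although its own level in rescue did not differ from WT beyond the spread. Aebp2 stood at 0.746 to 0.770 in dKO and 0.558 to 0.597 in rescue, against 0.958 to 1.04 in WT, with no overlap between any 2 of the groups. Jarid2 overlapped WT in dKO, at 0.961 to 1.05, and lay below it in rescue, at 0.662 to 0.803, against 0.945 to 1.05 in WT. Phf19 stood at 1.28 to 1.48 in dKO and 0.274 to 0.356 in rescue, against 0.866 to 1.13 in WT, and AU022751 at 13.4 to 21.1, 0.462 to 0.646 and 0.917 to 1.07 in the same order. Phf1 and Lcor overlapped WT in both groups. Suz12 itself rose 1.66-fold in rescue and 1.195-fold in dKO against WT. A gene that did not change would thus stand near 0.602 in rescue and 0.837 in dKO. In rescue Mtf2, Aebp2 and AU022751 averaged 0.596, 0.576 and 0.555, near that value. Jarid2, called higher than WT by its own level, lay below WT only in this ratio. The share of all tested genes below WT in it was not counted. These ratios are a description of 3 libraries a group and were not tested.

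**Figure D4:**
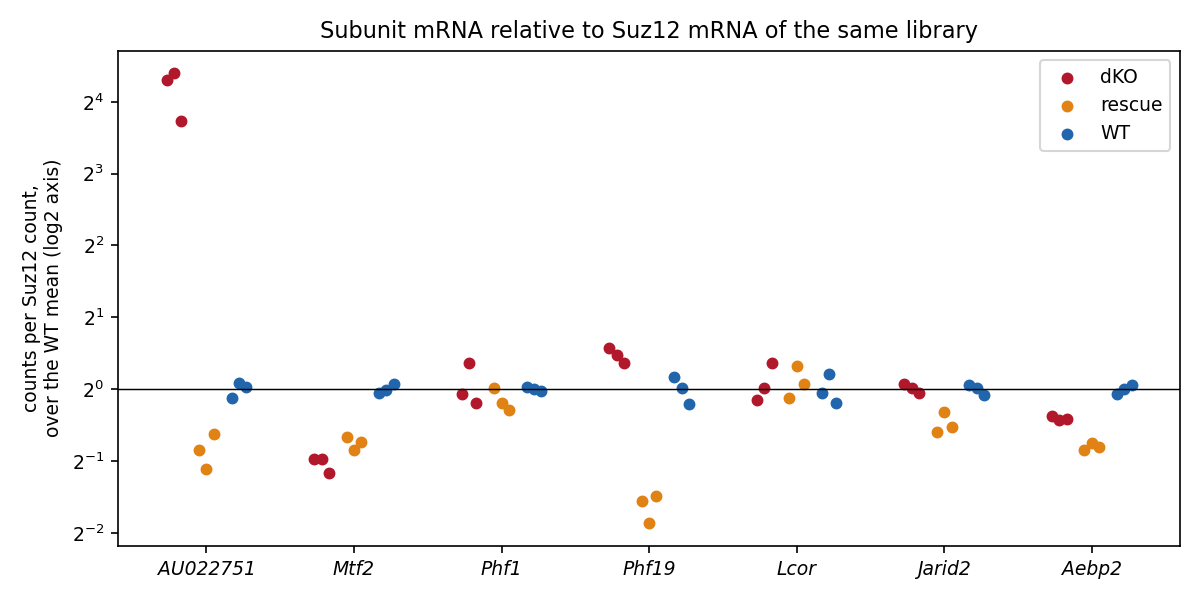
Counts of each subunit gene per Suz12 count of the same library, divided by the WT mean, on a log2 axis, for dKO, rescue and WT (1 point per library). In rescue, Mtf2, Phf19, Jarid2, Aebp2 and AU022751 lie below all WT libraries, and Phf1 and Lcor overlap WT. Suz12 itself is higher in rescue, so an unchanged gene would lie near 0.602 there.

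Other PRC2 genes set the accessory subunits in context. Of the 6 core genes, 5 fell and Suz12 rose in dKO against WT, with a median log2 fold change of -0.76, and all 6 rose in rescue against dKO, with a median of 0.66. Of all tested genes, 31.0% were called lower and 33.7% higher in dKO against WT, and 32.1% were called higher in rescue against dKO. The core counts include the knocked-out Ezh1 and Ezh2 and the re-expressed Ezh2, whose direction the genotype may set. Ezh1 averaged 1.99 CPM in dKO and 2.88 in rescue, and its dKO and rescue libraries overlapped. In rescue against WT 3 core genes rose, 2 fell and 1 was not called, where 26.8% of all tested genes rose and 27.3% fell. Ezh1 stood at -4.11 on the log2 scale in that comparison. Of 3 other PRC2-associated genes, 0 rose and 1 fell in dKO against WT, 1 rose and 0 fell in rescue against dKO, and 1 rose and 1 fell in rescue against WT. Lcorl, the paralogue of Lcor that encodes PALI2, was at 10.3, 9.77 and 9.90 CPM in dKO, 10.8, 8.97 and 9.30 CPM in rescue and 15.97, 15.9 and 15.6 CPM in WT. It fell by 0.66 ± 0.099 in dKO and by 0.70 ± 0.0972 in rescue against WT (edgeR Benjamini-Hochberg adjusted p = 9.21e-05 and 9.94e-05), whereas Lcor rose in rescue against WT. Epop (E130012A19Rik in the tables), an elongin-binding partner of the Polycomb-like form, averaged 182 ± 27.6 CPM in dKO, 248.6 ± 52.4 in rescue and 155 ± 24.3 in WT (SD, n = 3), and rose by 0.68 ± 0.163 in rescue against WT (edgeR Benjamini-Hochberg adjusted p = 0.00473). Skida1, a relative of Epop, averaged 7.54 ± 2.88, 7.58 ± 1.124 and 6.62 ± 1.24 CPM in the same order and was called in no comparison.

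The genes whose log2 CPM followed each subunit most closely over the 9 libraries were listed among 11203 genes of at least 2 CPM, by Pearson's r. The libraries fall into 3 groups, so r mainly says that the order and spacing of the group means are alike, and it carries no p. AU022751 was most like Megf6 (r = 0.999), Morc4 (0.998) and Tubb6 (0.998), and 756 genes exceeded 0.95. Mtf2 was most like Ube2g1 (0.997), Ubl3 (0.997) and Vat1 (0.994), with 271 genes over 0.95, and Phf19 was most like Creg1 (0.987), Mmp15 (0.985) and Slfn9 (0.984), with 169. Lcor was most like Ap1g1 (0.979), Rcor1 (0.978) and Golt1b (0.976), with 20 over 0.95, and Jarid2 most like Steap2 (0.976), Phactr2 (0.971) and Gpd1l (0.967), with 8. Phf1 was most like Snap91 (0.925), Dopey2 (0.923) and Ap3s2 (0.9202), and 0 genes exceeded 0.95.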

How the data were processed

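Counts of reads per gene were deposited by the authors as whole numbers without normalization. Per the submitters' processing notes, Trimmomatic, STAR 2.4.0, HTSeq and the mm10 build were used, and per the labels' protocols the kit, TruSeq RNA Library Prep Kit v2, does not mark strand. The sources used here do not give the annotation or the counting mode. Suz12 peaks were deposited as coordinates without a score (other values), and no source used here gives their caller or threshold. Positions are 1-based on mm10, which GRCm38.p6 gene positions share.

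Counts were analysed with edgeR 4.0.16 in R 4.3.3: filterByExpr by group, TMM, glmQLFit (robust) and glmQLFTest, two-sided, with 6 residual degrees of freedom and Benjamini-Hochberg adjustment over 14145 genes. SEs were derived from the F statistic. Symbols placed 22859 genes and synonyms 1230, and 133 were not matched. Replicates differed by more than sampling noise (chi-square per degree of freedom 2.17 to 23.3). Nothing in the labels says that they are separate cultures, so p-values measure only how these samples vary, possibly for technical reasons. The fit was tested on simulated data. DESeq2 1.42.0 was an alternative. A gene had a peak when 1 overlapped it or its flanks of 1 kb by at least 1 base.

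The genes named are the 7 subunits, the PRC2 core and 3 associated genes, the nearest tested gene on each side of AU022751, and for each called subunit the 3 genes with the highest Pearson correlation, without predicted-gene identifiers. Outside that rule, markers at or near 0 or that made up much of a list's sum were named after their values were seen. So were genes overlapping a subunit gene, and Tmed5 and Fam69a beside Mtf2. Genes and lists were chosen with earlier results of these data known. Intervals cover the spread between libraries, and counting error alone is smaller for genes of high counts. Levels were compared within genes only, since no transcript lengths were used.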

Additional observations from a re-analysis of the deposited data

How the results depend on the processing

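Over 17 alternatives in each of the 3 comparisons, 337 of 357 subunit fold changes kept their direction and side of the threshold, 2 lost their call, 6 gained one and 12 changed sign, all 12 without passing the threshold under the alternative (0 with an adjusted p under 0.05). AU022751, Mtf2, Phf19 and Jarid2 in dKO against WT, AU022751, Mtf2 and Phf19 in rescue against dKO, and Phf1, Phf19 and Lcor in rescue against WT were called under every alternative run.

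Sign changes were seen in rescue against dKO for Jarid2 (-0.01), at 0.01 with RLE factors (0.0112), 0.01 with no filter (0.00785), 0.03 with only the 2 groups (0.0252), 0.01 by DESeq2 (0.0112), 0.0904 without dKO replicate 3 and 0.0318 without rescue replicate 1 (range with 1 library left out -0.0641 to 0.0904), and for Aebp2, at -0.0563 with total counts. In rescue against WT they were seen for Mtf2, at 0.00 with RLE factors (0.00296), 0.00 by DESeq2 (0.00293), 0.0594 without WT replicate 3 and 0.0726 without rescue replicate 2 (range -0.0763 to 0.0726), and for AU022751, at 0.0145 without rescue replicate 2 (range -0.238 to 0.0145). The cause was not tested.

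With 1 library left out, the subunits called higher and lower numbered 3 to 5 and 1 to 2 in dKO against WT, 1 to 3 and 2 to 2 in rescue against dKO, and 2 to 3 and 1 to 1 in rescue against WT. The 5 came without dKO replicate 1 (Phf1 and Lcor), and the 2 lower and 3 higher without dKO replicate 3 (Aebp2, and Aebp2 with Lcor). With only the wider peaks, 1 subunit gene had a Suz12 peak, by construction of that alternative.

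Scaling to total counts moved the median of all genes by 0.14 in dKO against WT (0.136) and by -0.13 in rescue against dKO (-0.134), and the share of called genes that were higher to 66.2% and 34.4%, where TMM gave 52.1% and 45.6%. Replicate numbers did not pair the libraries: same-numbered deviations correlated at -0.112 to 0.201, and 4 of 9 libraries correlated best with their own number. With the replicate block, 3 subunits were higher and 1 lower in dKO against WT, 1 and 2 in rescue against dKO, and 3 and 1 in rescue against WT, as without it. Phf1, Phf19, Lcor and AU022751 outside dKO rest on 18 to 218 counts a library, which limits their intervals.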

Other observations

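The genes on either side of Mtf2 were noted after their values were seen, and both were expressed in all groups. Tmed5, which codes for a protein of the early secretory pathway, averaged 40.9 CPM in dKO, 59.8 in rescue and 65.0 in WT. It fell in dKO against WT and rose by 0.55 ± 0.153 on the log2 scale in rescue against dKO (edgeR Benjamini-Hochberg adjusted p = 0.00726). Fam69a averaged 22.7 CPM in dKO, 12.8 in rescue and 13.2 in WT, and rose by 0.78 ± 0.0909 in dKO against WT (edgeR Benjamini-Hochberg adjusted p = 1.23e-05).

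AU022751 rose in dKO far from any listed Suz12 peak. Of 2699 placed genes called higher by over 2-fold in dKO against WT, 63.0% had a peak within 1 kb and 2.26% had none within 1 Mb, against 31.5% and 2.25% of all tested and placed genes. Of the 278 called higher by over 16-fold, the group that includes AU022751, 65.5% had a peak within 1 kb. In that group 10 genes, or 3.6%, had none within 1 Mb, AU022751 among them.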
